A study of Gossypium hirsutum with 9 samples.

Results

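Runs of neighbouring genes whose transcript levels changed in the same direction were followed along the chromosomes of upland cotton (Gossypium hirsutum) in cultured ovules. Genes with IDs on the 26 chromosomes were kept where their FPKM (reads scaled by the length of the gene and the size of the library) was at least 1 in at least 3 libraries. Kept genes were ordered by chromosome and ID number, and a run was 3 or more consecutive kept genes that were all at least 1 higher, or all at least 1 lower, in group mean log2(FPKM + 0.5) at 150 than at 50 mM glucose. A step of 1 on this scale is about 2-fold in FPKM for high values and more than 2-fold for low ones, because of the pseudocount of 0.5. The rule found 96 runs with 305 genes, out of 46862 kept genes among 74902 chromosomal IDs (0.651% of kept genes). Rising runs numbered 50 with 159 genes, and falling runs numbered 46 with 146 genes. Because the difference between 150 and 50 mM chose these genes, their values in that contrast are given as a description.

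Upland cotton combines the chromosomes of 2 ancestral species, called the A and D subgenomes, and each subgenome carries a copy of most genes on chromosomes of matching number. A gene on one subgenome and its copy on the other are called homoeologs. Neighbouring genes in plant genomes often arose by tandem duplication, so that near-identical copies lie side by side, and neighbours can also share stretches of open or closed chromatin. Cotton fibres are single cells that grow from the outer layer of the ovule, and ovules in culture take their carbon from the sugar of the medium. Glucose in plants acts both as a carbon source and as a signal that changes transcript levels.

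The study used ovules of strain TM-1 kept for 5 days on medium with 50, 150 or 300 mM glucose, with 3 libraries at each concentration, and its title names fibre elongation and the plant hormone brassinosteroid as its subject. All groups shared the strain, the tissue and the culture time, and differed in glucose alone per the labels. No group analysed here controls for the osmotic strength of the medium, so effects of glucose as a sugar and as a solute cannot be told apart. RNA came from whole ovules, so fewer cells of a type and less RNA per cell cannot be told apart, and since the labels name no separate cultures, p-values measure the spread between libraries, which may be technical.

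Libraries held 17803779 to 19140297 reads recovered from the FPKM values, and 47826 to 48933 genes reached an FPKM of 1 in a library. Over kept genes replicate 1 at 300 mM correlated with replicates 2 and 3 of its group at 0.952 and 0.945. Those correlated with each other at 0.959, and libraries within the 50 mM group at 0.971 to 0.979. With the 3 replicates at 150 mM, replicate 1 at 300 mM correlated at 0.952, 0.927 and 0.958. It was thus no closer to its own group than to replicates 1 and 3 at 150 mM. The main counts, shares and medians at 300 mM are therefore also given without it. The files pair no ID with a gene name or a description, so the genes are named by ID, with the shared ending of the IDs left out, no function is given, and no marker of ovule or fibre cells could be looked up. A run is named by its first gene.

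Most genes past the step stood alone. Of kept genes, 3602 (7.69%) were at least 1 higher at 150 mM and 2916 (6.22%) at least 1 lower. Rising genes formed 2813 stretches of 1 gene, 315 of 2, 42 of 3, 7 of 4 and 1 of 5. Falling genes formed 2242, 264, 41, 3 and 1 stretches of the same lengths, and 1 of 6. The runs thus held 4.41% of the rising and 5.01% of the falling genes past the step.

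The tendency to move with a neighbour was short in range. After a rising gene the next kept gene also rose past the step in 11.8% of cases and fell past it in 5.92%. After a falling gene the next fell in 12.5% and rose in 6.52%. At 2 genes' distance the same-way shares were 8.97% and 8.44%, and at 50 genes 7.86% and 5.92%. These shares come from the contrast of the rule and are not tested. The genes flanking the runs did not share the change, and the adjacent one by definition was not past the step. At distances of 1 to 5 kept genes from a run, the median difference ranged from 0.01 to 0.08 beside rising runs and from -0.10 to 0.10 beside falling runs.

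Runs lay on 24 of the 26 chromosomes, with none on A06 or A07. Chromosome D11 carried 12 runs with 40 genes, followed in number of runs by D05 with 8 and D08 with 7. Per 1000 kept genes D11 held 16.1 run genes, D02 11.5, D08 10.8, A03 10.1, A12 9.69 and D05 9.53. The A subgenome held 38 runs (5.12 genes in runs per 1000 kept) and the D subgenome 58 (7.85 per 1000). All 50 rising and 46 falling runs were short: 83 had 3 genes, 10 had 4, 2 had 5 and 1 had 6. In 45 runs no other ID lay between the members, and in the rest 127 IDs below the filter were passed over, up to 20 in a run. Between neighbouring runs of a chromosome the median distance was 224 kept genes, and 10 of 72 such gaps were of 50 genes or fewer. The nearest pair, 14 kept genes apart, were the falling runs of Gohir.D05G352500 and Gohir.D05G355800.

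**Figure D1:**
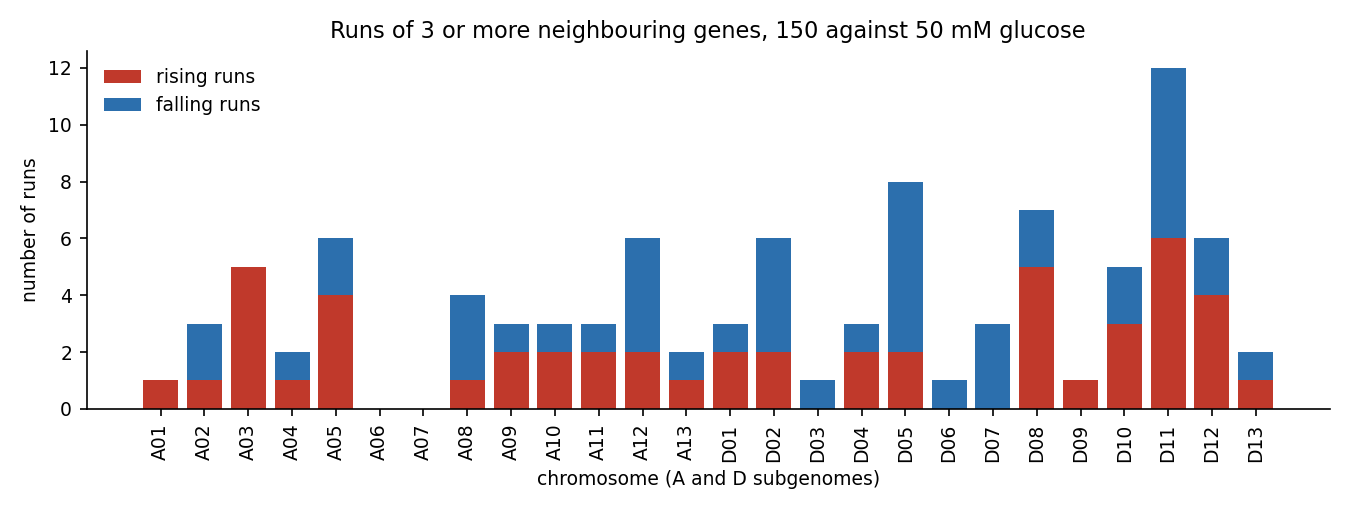
Number of rising (red) and falling (blue) runs on each chromosome of the A and D subgenomes, stacked. D11 carries the most, with 12, and A06 and A07 carry none.

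The levels at 50 and 150 mM are those the rule used, and a rise or fall by the step favours low or high values at 50 mM. The median FPKM of rising-run genes was 2.99 at 50 mM, 10.4 at 150 mM and 7.06 at 300 mM. For falling-run genes it was 14.3, 3.04 and 4.09, against 8.14 at 50 mM over all kept genes. Changed genes outside runs also differed from all kept genes in this way, with medians at 50 mM of 2.33 for rising and 12.2 for falling genes. The difference between 150 and 50 mM had a median of 1.497 in rising runs (1.01 to 3.35) and of -1.62 in falling runs (-5.63 to -1.01). By limma over all 50988 tested genes, 148 of the 159 rising genes were called higher (16.0% of all genes were) and 125 of the 146 falling genes lower (13.3% of all genes), with the threshold at an adjusted p of 0.05. The 50 and 150 mM libraries did not overlap for 150 rising and 135 falling genes (50.1% of kept genes). Nothing is read from these counts, since the rule used the contrast. Reads behind a member, summed over 9 libraries, ranged upward from 32 with a median of 968, and 22 members had under 100.

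The step of the rule cut through a continuous range. The run of Gohir.A01G155701 was just inside, with a smallest difference of 1.01, as was the falling run of Gohir.D11G025525, with 1.01 in absolute size. Just outside were the stretches Gohir.D08G079700 to Gohir.D08G080000 and Gohir.D12G166750 to Gohir.D12G166901, whose smallest absolute differences were 0.999 and 0.996.

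Runs chosen without a replicate could be read in the replicate left out. When replicate 1, 2 or 3 of both groups was set aside and the rule applied to the remaining libraries, rising-run genes had the same direction in the replicate set aside in 95.6%, 96.4% and 96.7% of cases, and were past the step in 72.5%, 75.5% and 70.2%. Changed genes outside runs, chosen in the same way, were past it in 69.8%, 64.3% and 63.1%. Falling-run genes kept their direction in 98 of 98, 138 of 158 and 136 of 142 cases and were past the step in 87.8%, 65.2% and 72.5%, against 76.1%, 56.9% and 67.2% of changed genes outside runs. Among all kept genes, 7.79% to 10.2% were that much higher and 6.42% to 7.66% that much lower in the single replicate. Replicate numbers do not mark shared cultures in the labels, so these pairs of libraries are arbitrary. The runs so chosen numbered 51, 43 and 58 rising and 31, 50 and 45 falling without replicate 1, 2 and 3. They are other sets than the 96 runs described here, so these values are no test of the 96.

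The longest run was a falling run of 6 genes on D06, from Gohir.D06G011700 to Gohir.D06G012800, with 6 IDs below the filter among them. Its first gene had an FPKM of 19.7, 31.2 and 23.7 at 50 mM, 9.81, 10.2 and 12.8 at 150 mM, and 8.46, 16.9 and 10.2 at 300 mM. Gohir.D06G011800 had an FPKM of 5.76, 6.56 and 8.46 at 50 mM, 0.354, 0.795 and 0.456 at 150 mM, and 0.317, 1.037 and 0.698 at 300 mM. Both were lower in every library at 150 and 300 mM than in any at 50 mM. At 300 mM their log2 changes from 50 mM were -1.07 (SE 0.25, limma adjusted p = 0.00943) and -2.68 (SE 0.28, limma adjusted p = 0.000195). Gohir.D06G012100, Gohir.D06G012500 and Gohir.D06G012601 were also lower at 300 than at 50 mM, with log2 changes of -1.62, -1.83 and -1.74, past the same threshold also without any 1 library. The last gene, Gohir.D06G012800, behaved unevenly, with FPKM values of 7.60, 0.629 and 9.97 at 50 mM, 0.188, 4.89 and 0 at 150 mM, and 0.444, 1.29 and 7.31 at 300 mM, and was not called at 300 against 50 mM (limma adjusted p = 0.553). None of the 6 genes differed between 300 and 150 mM past the threshold. Coding lengths were close in 4 of the 6 genes, at 1596, 1578, 1578 and 1599 bases.

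A rising run of 5 genes on D11 spanned Gohir.D11G312000 to Gohir.D11G313100, with 20 IDs below the filter among them. Its 3 most abundant members have coding lengths of 3501, 3543 and 3582 bases. Gohir.D11G312100 had an FPKM of 3.83, 4.47 and 3.505 at 50 mM, 16.7, 15.4 and 12.9 at 150 mM, and 6.91, 6.25 and 4.26 at 300 mM. Gohir.D11G313100 had an FPKM of 6.04, 3.85 and 6.90 at 50 mM, 24.9, 23.8 and 21.0 at 150 mM, and 12.3, 6.91 and 4.67 at 300 mM. Both were highest at 150 mM in every library and came back toward the 50 mM level at 300 mM. From 150 to 300 mM the log2 change was -1.31 (SE 0.18, limma adjusted p = 0.00398) for the former, a call no alternative removed. For the latter it was -1.59 (SE 0.30, limma adjusted p = 0.0153), with an adjusted p of up to 0.061 without replicate 1 or 2 at 150 mM or replicate 2 at 300 mM. Gohir.D11G312200 lay between them, at 1.37, 1.74 and 1.82 at 50 mM, 7.20, 6.34 and 5.69 at 150 mM, and 4.15, 4.23 and 2.53 at 300 mM, and stayed above its 50 mM level by 0.92 on the log2 scale (limma adjusted p = 0.00703). The first 2 genes were low, with a highest FPKM in any library of 3.08 for Gohir.D11G312000 and 2.32 for Gohir.D11G312018.

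The falling run of 5 genes on D02, from Gohir.D02G223000 to Gohir.D02G223600, parted at 300 mM. Gohir.D02G223300 had an FPKM of 5.51, 10.03 and 6.90 at 50 mM, 2.096, 2.999 and 3.89 at 150 mM, and 12.5, 23.2 and 20.3 at 300 mM. It was thus lowest at 150 mM and highest at 300 mM, and the groups did not overlap. The log2 change from 150 to 300 mM was 2.44 (SE 0.28, limma adjusted p = 0.00236, at most 0.0123 without any 1 library), and from 50 to 300 mM 1.26 (limma adjusted p = 0.00857). Among the 146 falling genes it alone was called higher at 300 than at 50 mM. Gohir.D02G223600 went the other way, with an FPKM of 17.6, 3.67 and 20.7 at 50 mM, 1.44, 7.55 and 0.162 at 150 mM, and 0, 0.804 and 1.42 at 300 mM, although replicate 2 at 50 mM lay below replicate 2 at 150 mM. Gohir.D02G223500 followed it, with values of 12.1, 1.001 and 9.39 at 50 mM, 0.639, 2.40 and 0 at 150 mM, and 0, 0.643 and 1.42 at 300 mM, and has the same coding length of 318 bases. Gohir.D02G223200, which shares its coding length of 291 bases with Gohir.D02G223300, had an FPKM of 2.94, 4.92 and 1.87 at 50 mM, 0.349, 1.69 and 0.354 at 150 mM, and 2.06, 1.76 and 2.07 at 300 mM. Near-identical copies can share reads, so the split between genes of equal length is uncertain.

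Of the 3 runs of 4 genes named by size, the rising run of Gohir.D12G139050 also parted at 300 mM. Gohir.D12G139500 went on rising, with an FPKM of 0.564, 1.12 and 0.344 at 50 mM, 3.43, 3.80 and 5.10 at 150 mM, and 9.70, 9.50 and 8.88 at 300 mM, a log2 change of 1.11 (limma SE 0.24, adjusted p = 0.0256) from 150 mM. That call was lost without replicate 1 or 2 at 150 mM or replicate 2 or 3 at 300 mM (adjusted p up to 0.0979). Its neighbour Gohir.D12G139600 fell back, with an FPKM of 13.9, 5.37 and 15.9 at 50 mM, 41.4, 55.3 and 29.8 at 150 mM, and 10.7, 4.75 and 4.79 at 300 mM, a log2 change of -2.61 (limma SE 0.42, adjusted p = 0.00766), which held without any 1 library. The other 2 genes remained above 50 mM. Gohir.D12G139050 had 1.41, 2.33 and 4.29 at 50 mM, 4.84, 8.13 and 5.80 at 150 mM, and 12.2, 13.7 and 10.7 at 300 mM, and Gohir.D12G139300, nearly silent at 50 mM with 1, 2 and 2 reads, had an FPKM of 2.15, 2.81 and 3.13 at 150 mM and 2.29, 0.515 and 0.726 at 300 mM.

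In the falling run of Gohir.D04G086100 all 4 genes were lower at 300 than at 50 mM past the threshold. The most abundant, Gohir.D04G086200, had an FPKM of 70.0, 65.0 and 64.01 at 50 mM, 20.5, 22.4 and 30.3 at 150 mM, and 26.8, 27.6 and 34.7 at 300 mM. The sharpest drop was in Gohir.D04G086400, at 47.7, 45.3 and 29.3 at 50 mM, 1.36, 5.64 and 1.38 at 150 mM, and 3.06, 13.3 and 11.5 at 300 mM. Both groups above 50 mM lay below the 50 mM libraries in each gene. Leaving out 1 library removed the 300 against 50 mM call of Gohir.D04G086100 in 4 cases (replicate 1 or 3 at 50 mM, replicate 1 or 2 at 300 mM; adjusted p up to 0.0879). The rising run of Gohir.D04G090600 follows on the chromosome, with 37 kept genes between the runs. The rising run of 4 genes from Gohir.D05G231500 held genes near the filter, such as Gohir.D05G232500 with 0, 0 and 0.452 at 50 mM, 1.06, 9.32 and 6.002 at 150 mM, and 4.79, 3.197 and 4.38 at 300 mM and 0, 0 and 2 reads at 50 mM. Its last gene, Gohir.D05G232600, had 10.1, 4.99 and 8.82 at 50 mM, 13.9, 42.9 and 21.1 at 150 mM, and 10.5, 4.37 and 4.92 at 300 mM and came back to within or near the range of its 50 mM libraries. The fall from 150 to 300 mM in that gene was -1.85 (SE 0.43, limma adjusted p = 0.0375), lost without any of 6 libraries, namely replicate 1 or 3 at 50 mM and replicates 2 and 3 at 150 and 300 mM (adjusted p up to 0.133).

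Among falling runs the largest mean differences between 150 and 50 mM were on A02 (-3.45), D01 (-3.32), D11 (-2.78) and A05 (-2.74). The A02 run is described with its matching run on D02. In the D01 run Gohir.D01G042764 had an FPKM of 143, 123 and 191 at 50 mM, 2.77, 6.89 and 0.661 at 150 mM, and 1.13, 4.52 and 24.9 at 300 mM. This was the largest difference of any member, at -5.63, and replicate 3 at 300 mM stood above both other libraries of its group. Its neighbour Gohir.D01G042760 had 33.1, 37.3 and 30.8 at 50 mM, 2.87, 8.85 and 2.498 at 150 mM, and 1.196, 1.07 and 2.54 at 300 mM and differed by -4.09 from its 50 mM level at 300 mM (SE 0.40, limma adjusted p = 0.000164). The first gene of the run, Gohir.D01G042758, moved least, with 15.5, 13.5 and 12.9 at 50 mM, 3.67, 5.90 and 5.30 at 150 mM, and 3.95, 12.4 and 5.08 at 300 mM.

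In the D11 run from Gohir.D11G303500, the longest gene, Gohir.D11G304200 with 3048 coding bases, had an FPKM of 51.6, 57.1 and 50.9 at 50 mM, 3.65, 4.24 and 4.69 at 150 mM, and 1.89, 4.51 and 2.40 at 300 mM. Its libraries were tight within groups, and at 300 mM it differed by -4.04 from 50 mM (SE 0.24, limma adjusted p = 2.13e-05). Gohir.D11G304106, with 123 coding bases, had 25.2, 79.8 and 30.9 at 50 mM, 2.48, 1.77 and 4.18 at 150 mM, and 5.28, 14.1 and 11.8 at 300 mM. Gohir.D11G303500 was back near its 50 mM level at 300 mM in replicates 2 and 3, with 5.21, 5.57 and 3.63 at 50 mM, 2.31, 1.72 and 1.53 at 150 mM, and 2.32, 5.22 and 4.56 at 300 mM. In the A05 run Gohir.A05G337200 and Gohir.A05G337466, of 339 and 312 coding bases, had 10.9, 5.17 and 16.8 and 9.59, 15.3 and 8.88 at 50 mM. At 150 mM they had 1.199, 3.54 and 0.304 and 0.977, 2.27 and 0.330. At 300 mM Gohir.A05G337466 was at 0.320, 0.984 and 0.963, while Gohir.A05G337200 spread from 0 to 7.53.

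The largest mean differences among rising runs were on D04 (2.53), D12 (2.30), D11 (2.21) and A10 (2.18). In the D04 run Gohir.D04G090600 had an FPKM of 1.43, 1.85 and 3.34 at 50 mM, 21.0, 17.7 and 20.7 at 150 mM, and 21.5, 14.7 and 11.2 at 300 mM. Gohir.D04G090700 had 0.224, 0 and 0.569 at 50 mM, 6.07, 6.98 and 5.50 at 150 mM, and 7.55, 2.68 and 4.1999 at 300 mM, where the 50 mM libraries held 2, 0 and 5 reads, and Gohir.D04G090800 had 4.70, 5.75 and 9.46 at 50 mM, 18.2, 16.6 and 19.2 at 150 mM, and 17.5, 11.5 and 13.3 at 300 mM. All 3 genes kept most of the rise at 300 mM, with log2 changes from 50 mM of 2.60, 2.76 and 1.07 (limma adjusted p = 0.00022, 0.000558 and 0.00695).

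The D12 run from Gohir.D12G136300 did the same. Its first gene had 12.5, 11.1 and 21.2 at 50 mM, 50.3, 40.7 and 55.0 at 150 mM, and 52.8, 29.0 and 39.8 at 300 mM, and its last, Gohir.D12G136500, had 13.0, 10.2 and 14.8 at 50 mM, 56.0, 36.0 and 46.9 at 150 mM, and 42.2, 34.1 and 40.8 at 300 mM. Gohir.D12G136400, of 183 coding bases, had 1.46, 1.74 and 2.97 at 50 mM, 21.9, 18.5 and 37.4 at 150 mM, and 44.8, 27.9 and 8.21 at 300 mM, a wide spread at 300 mM. In all 3 genes every library at 150 and 300 mM was above the highest library at 50 mM.

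At 300 mM the runs of both directions mostly stayed on their side of the 50 mM level, and the median return was larger in rising than in falling runs. The 300 mM libraries played no part in the rule, but both contrasts share libraries with it. Rising-run genes at 300 mM differed by a median of -0.32 from 150 mM and 1.13 from 50 mM. Falling-run genes differed by 0.15 and -1.61. Without replicate 1 at 300 mM the median from 150 mM was -0.52 for rising and 0.36 for falling runs, and that from 50 mM 0.94 and -1.34. The falling-run median from 150 mM also depended on other libraries, and was 0.01, 0.03 and 0.27 without replicate 2 or 3 at 300 mM or replicate 2 at 150 mM. With all libraries, changed genes outside runs had medians of -0.28 (rising) and 0.16 (falling) from 150 to 300 mM. Over all kept genes the median was -0.01 from 150 to 300 mM and 0.01 from 50 to 300 mM. Of rising-run genes 93 (58.5%) were still at least 1 above 50 mM (6.19% of all kept genes were), close to the 58.9% of rising genes outside runs. Of falling-run genes 116 (79.5%) were still at least 1 below (8.07% of all kept genes), against 70.0% of falling genes outside runs. Without replicate 1 at 300 mM these shares were 48.4% against 49.3% for rising and 66.4% against 58.6% for falling genes. The difference between members and other changed genes was not tested. From 150 to 300 mM 33 rising-run genes were at least 1 lower (4.34% of kept genes) and 2 at least 1 higher (1.63%), and 21 falling-run genes were at least 1 higher and 11 at least 1 lower. The last 2 counts were 41 and 7 without replicate 1 at 300 mM and 32 and 6 without replicate 2 at 150 mM, and the first was 39 without replicate 1 at 300 mM.

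By limma, 25 rising-run genes were lower at 300 than at 150 mM, where 4.80% of all genes were, and 2 were higher, where 1.31% were. Of falling-run genes 9 were higher and 6 lower. These counts rest on single libraries. Without replicate 1 at 300 mM 40 rising-run genes were called lower (6.01% of all genes) and 28 falling-run genes higher (2.62%), while leaving out any other library gave 9 to 23 and 1 to 5 calls. Against 50 mM, 106 rising-run genes were higher (16.0% of all genes) and 105 falling-run genes were lower (16.3%), and 100 and 92 without replicate 1 at 300 mM. Part of any excess over all genes follows from the choice of genes, since the rule used the 50 and 150 mM libraries. The 300 and 50 mM libraries did not overlap for 113 rising and 113 falling genes (47.3% of kept genes), and the 300 and 150 mM libraries for 53 and 29 (23.3%).

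Runs did not all move as units at 300 mM. All genes were still past the step in 14 rising runs, some in 30 and none in 6. The corresponding counts were 25, 19 and 2 for falling runs. The run mean came back toward the 50 mM level in 45 of 50 rising and 31 of 46 falling runs. The rule chose on the 150 mM libraries, which favours such a return, so the count is a description. Changed genes outside runs had medians of -0.28 (rising) and 0.16 (falling) from 150 to 300 mM, near the -0.32 and 0.15 of run genes. Without replicate 1 at 300 mM all, some or none of the genes were still past the step in 10, 30 and 10 rising and 17, 23 and 6 falling runs, and 47 and 37 run means came back. Rising runs with all genes past the step were 9 without replicate 1 at 50 mM, and those with none were 3 without replicate 3 at 300 mM. At least 1 gene passed the threshold for 300 against 150 mM in 20 rising and 14 falling runs. Of all genes, 1.31% were called higher and 4.80% lower in this contrast, and no such tally was made for other groups of neighbours. All genes passed it in 1 run, that of Gohir.A10G097500, singled out after its values were seen. Its most abundant gene, Gohir.A10G097700, had 28.3, 19.7 and 33.4 at 50 mM, 139.6, 172 and 101 at 150 mM, and 72.3, 56.8 and 51.2 at 300 mM. The other 2 members had log2 changes of -1.75 and -0.96 from 150 to 300 mM, against -1.17 for Gohir.A10G097700. No library at 300 mM reached the level of any at 150 mM in these genes, and their calls were not recomputed with libraries left out.

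**Figure D2:**
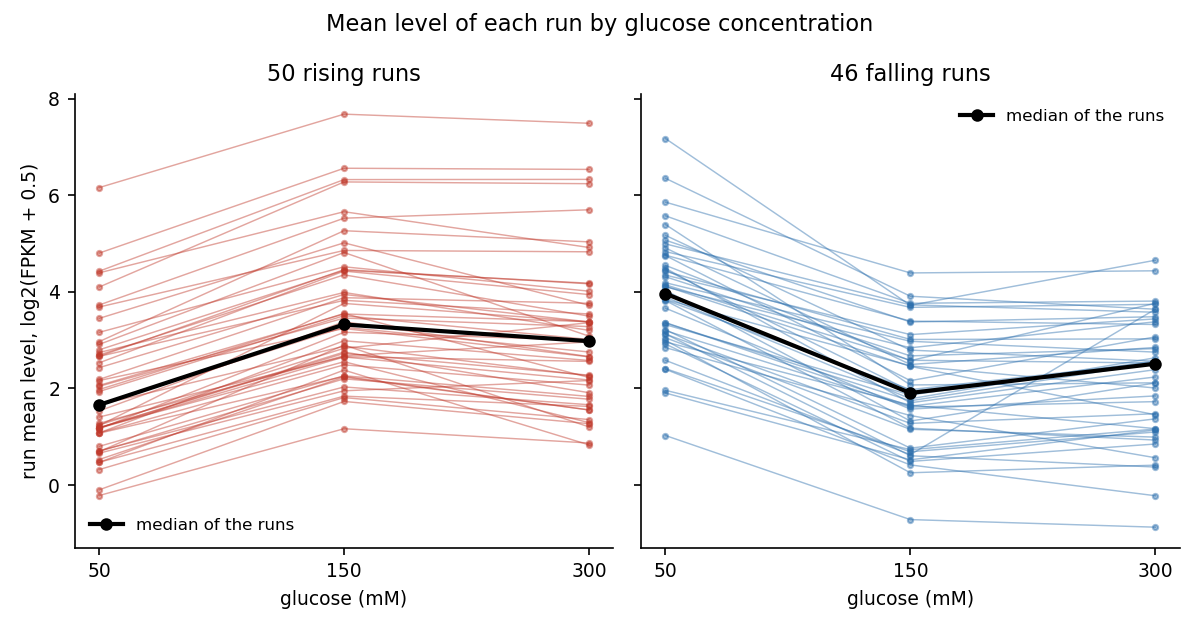
Mean level of each run, as log2(FPKM + 0.5) averaged over its genes and libraries, at 50, 150 and 300 mM glucose. Thin lines are single runs and the black line is the median of the runs. The median goes from 1.66 to 3.32 and 2.98 in the 50 rising runs and from 3.96 to 1.91 and 2.51 in the 46 falling runs.

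The rising runs with the largest mean return at 300 mM were those of Gohir.A11G070100 (-1.73), Gohir.D11G074000 (-1.69) and Gohir.D08G021400 (-1.55). In the D08 run Gohir.D08G021400 had an FPKM of 1.81, 0.864 and 2.69 at 50 mM, 8.04, 8.81 and 6.97 at 150 mM, and 2.70, 1.199 and 0.880 at 300 mM. Its level at 300 mM lay within the range of its 50 mM libraries or just beside it, and the fall from 150 mM was -2.102 (SE 0.36, limma adjusted p = 0.00971, at most 0.0437 without any 1 library). Gohir.D08G021500 had 1.46, 0.625 and 1.31 at 50 mM, 6.27, 8.99 and 5.04 at 150 mM, and 4.06, 1.996 and 1.40 at 300 mM, with replicate 1 at 300 mM nearest to 150 mM. Gohir.D08G021600 had 0.408, 0.145 and 0.296 at 50 mM, 1.64, 1.96 and 2.02 at 150 mM, and 1.06, 0.279 and 0.410 at 300 mM, and in both genes replicate 1 was the highest of the 300 mM libraries. The adjusted p of these genes was 0.0546 and 0.0451 by limma, and 0.0117 and 0.00947 without replicate 1 at 300 mM. Leaving out any other library removed the call of the latter, with an adjusted p of up to 0.141.

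On A11 the run from Gohir.A11G070100 and on D11 the run from Gohir.D11G074000 lay in blocks that align with each other. Gohir.A11G070300 had an FPKM of 15.2, 11.9 and 21.2 at 50 mM, 75.2, 61.2 and 65.3 at 150 mM, and 46.1, 23.5 and 21.4 at 300 mM, and Gohir.A11G070100 had 5.94, 4.42 and 6.94 at 50 mM, 27.1, 27.9 and 25.7 at 150 mM, and 15.3, 9.94 and 1.95 at 300 mM. Gohir.D11G074200 had 1.09, 0.863 and 1.66 at 50 mM, 18.0, 15.3 and 16.3 at 150 mM, and 11.2, 2.39 and 1.22 at 300 mM, where replicate 1 at 300 mM was nearest to the 150 mM libraries. The last genes of the runs, Gohir.A11G070400 and Gohir.D11G074300, are counterparts of 594 coding bases each. The A copy had 5.13, 1.88 and 5.30 at 50 mM, 5.99, 21.6 and 11.6 at 150 mM, and 2.69, 3.53 and 1.26 at 300 mM, and the D copy had 4.77, 1.16 and 3.93 at 50 mM, 5.48, 17.9 and 7.88 at 150 mM, and 1.60, 2.76 and 1.85 at 300 mM. Both were highest in replicate 2 at 150 mM and below their 50 mM mean at 300 mM. Their falls from 150 mM were -2.09 and -1.95 (limma adjusted p = 0.0396 and 0.0472). Those calls were lost without 7 and 8 of the 9 libraries in turn, all but replicate 2 at 50 mM and, on A11, also replicate 1 at 150 mM (adjusted p up to 0.117 and 0.132).

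**Figure D3:**
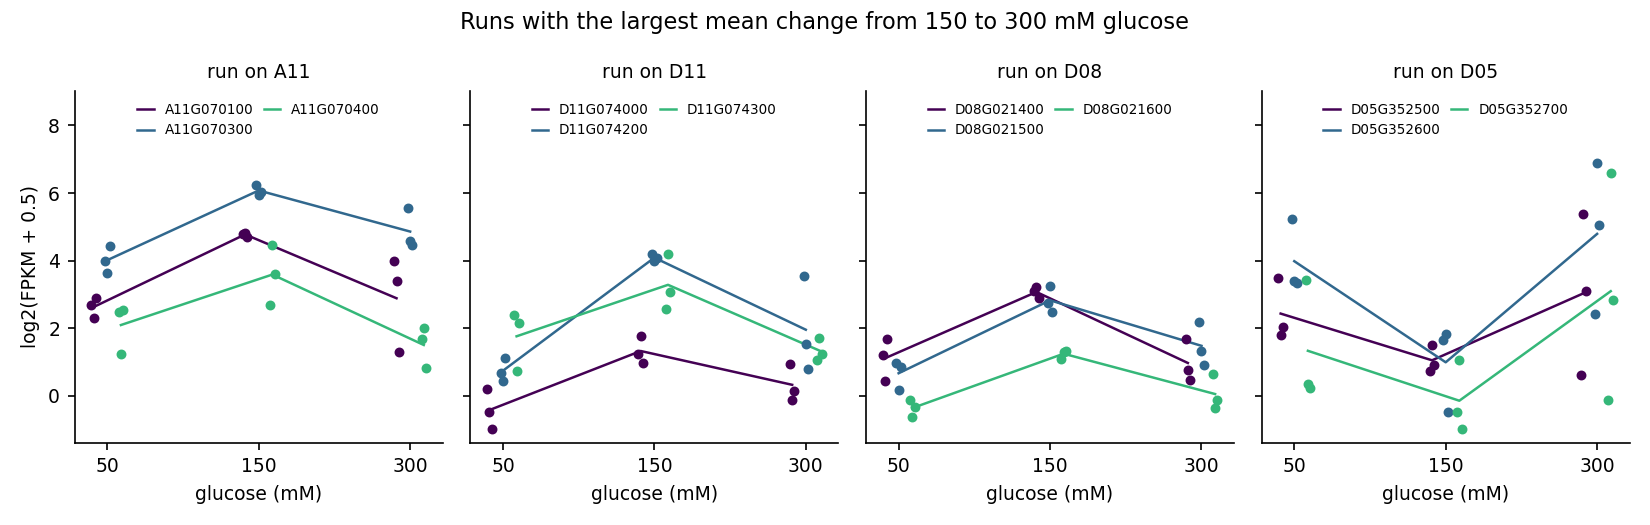
Levels of the genes in the 3 rising runs (A11, D11, D08) and the falling run (D05) whose means changed most from 150 to 300 mM, as log2(FPKM + 0.5) by glucose concentration. Points are libraries, shifted sideways by gene, and lines join group means. The rising runs return by means of -1.73, -1.69 and -1.55, and the 300 mM libraries of the D05 run spread over several steps of the scale.

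Among falling runs the largest mean change at 300 mM was in the run of Gohir.D05G352500, whose 3 genes have 486 coding bases each. Gohir.D05G352600 had an FPKM of 37.0, 9.94 and 9.61 at 50 mM, 2.61, 3.03 and 0.212 at 150 mM, and 4.83, 119 and 32.8 at 300 mM. Gohir.D05G352700 had 10.2, 0.764 and 0.670 at 50 mM, 0.209, 1.57 and 0 at 150 mM, and 0.411, 95.9 and 6.60 at 300 mM, and Gohir.D05G352500 had 10.7, 2.95 and 3.57 at 50 mM, 1.15, 2.36 and 1.38 at 150 mM, and 1.03, 40.9 and 8.14 at 300 mM. In all 3 genes replicate 2 was the highest and replicate 1 the lowest of the 300 mM libraries, and replicate 1 was the highest at 50 mM. No gene passed the threshold in any contrast (limma adjusted p = 0.303, 0.0684 and 0.27 for 300 against 150 mM in order of position). Without replicate 1 at 300 mM all 3 did so (adjusted p = 0.0216, 0.00839 and 0.0458). Genes of equal length side by side may share reads, so the 3 are not independent observations.

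The falling run of Gohir.D13G094300 came back by a mean of 1.19. Gohir.D13G094400 had an FPKM of 12.5, 34.2 and 11.2 at 50 mM, 1.81, 2.12 and 1.998 at 150 mM, and 5.34, 8.61 and 12.0 at 300 mM. It rose from 150 to 300 mM by 1.82 (SE 0.40, limma adjusted p = 0.0272), a call lost without any 1 library at 150 mM or without replicate 2 or 3 at 300 mM (adjusted p up to 0.0909). Its neighbours Gohir.D13G094300, with 29.2, 71.9 and 27.8 at 50 mM, 7.86, 18.6 and 18.0 at 150 mM, and 17.2, 28.8 and 50.3 at 300 mM, and Gohir.D13G094500, with 16.7, 24.8 and 14.4 at 50 mM, 6.13, 6.58 and 4.01 at 150 mM, and 6.03, 7.44 and 16.7 at 300 mM, were not called. The 3 genes have 291, 309 and 282 coding bases, and in each replicate 2 was the highest at 50 mM.

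Neighbours in runs had the same coding length more often than neighbouring kept genes in general, though most did not. The length of a gene could be recovered from its FPKM values for 283 members, and 24 of 183 neighbouring pairs in runs (13.1%) were equal to the base. The share was 4.80% in stretches of 2 genes and 0.778% (343 of 44099) among all neighbouring kept genes. Equal neighbours occurred in 6 rising and 10 falling runs with 53 genes. In 7 runs every member had the same length. They lay on A09 (426 bases), A10 and D10 (411 each), D02 (1140), D05 (486 and 192) and D10 (867). Members were shorter than kept genes in general, with a median of 825 against 1089 bases.

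The runs on A09, D02 and D10 with equal lengths are named for that property, after their values were seen. On A09, Gohir.A09G088100 had an FPKM of 29.6, 25.9 and 35.2 at 50 mM, 97.2, 94.1 and 109 at 150 mM, and 109, 105 and 78.2 at 300 mM, and Gohir.A09G088200 had 23.6, 23.2 and 29.3 at 50 mM, 84.8, 74.1 and 82.6 at 150 mM, and 89.5, 81.3 and 82.9 at 300 mM. Gohir.A09G088400 had 26.7, 25.3 and 29.6 at 50 mM, 99.3, 93.3 and 115 at 150 mM, and 118, 89.2 and 83.9 at 300 mM, so that the 3 genes had near-equal levels in all groups and no overlap between 50 mM and the others. On D10, Gohir.D10G245700 had 86.7, 89.0 and 96.6 at 50 mM, 21.7, 36.0 and 13.3 at 150 mM, and 13.3, 26.3 and 24.8 at 300 mM, Gohir.D10G245500 had 30.8, 33.1 and 25.2 at 50 mM, 5.86, 6.61 and 6.59 at 150 mM, and 5.07, 11.4 and 12.0 at 300 mM, and Gohir.D10G245600 had 41.4, 38.0 and 37.5 at 50 mM, 16.8, 22.1 and 10.6 at 150 mM, and 12.6, 11.2 and 17.0 at 300 mM. All 3 stayed low at 300 mM, with log2 changes from 50 mM of -1.68, -1.504 and -2.11 in order of position. In the D02 run Gohir.D02G072500 ranged from 0.614 to 15.3 at 300 mM, wider than Gohir.D02G072900 at 4.17, 4.76 and 11.03.

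Neighbours in runs, like other neighbouring genes that changed the same way, varied together between libraries of the same group, which the rule did not use. For each gene the 9 deviations from its group means were taken, and the correlation between neighbours in runs had a median of 0.465 over 209 pairs, of which 172 were positive. Over all 46836 neighbouring kept pairs it was 0.0355. In stretches of 2 changed genes it was 0.444 over 521 pairs, close to the value in runs. Changed genes that lay 50 kept genes apart and moved the same way had a median of 0.303 over 445 pairs. The correlations share the 9 libraries, and replicate 1 at 300 mM carried part of them. Without it these medians were, in the same order, 0.263, 0.0345, 0.282 and 0.161. The part of shared reads between copies in these values was not tested.

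For runs on the other subgenome, gene order was compared through the coding lengths. The lengths of a run and of 10 IDs on either side were aligned with every chromosome of the other subgenome in both orientations. A block was accepted where its score, with 2 points for an equal length and a loss of 1 for a mismatch or gap, was at least 10 and at least 1.5 times the best score elsewhere. A block was found for 48 of 96 runs, 26 rising and 22 falling, with scores of 10 to 26 and a best score elsewhere of at most 4. Windows of the same make placed along all chromosomes found a block in 47.6% of 4266 cases. Of the 48 blocks 40 lay on the chromosome of the same number, 6 joined chromosomes 02 and 03 and 2 joined 04 and 05. Both exchanges are known from reciprocal translocations in the A subgenome.

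A gene aligned at equal length is called a counterpart, and a matching run is a run of the same direction that holds at least 2 counterparts. There were 64 counterparts of run genes, which made 53 different pairs since some pairs were found from both sides. In 50 pairs both genes moved the same way between 50 and 150 mM, and in 38 both were past the step. In 11 of these pairs both genes lay in runs, so that the rule itself put both past the step. Of 22 runs with at least 2 counterparts, 8 had a matching run, which gave 4 pairs of matching runs. Reads from a gene and its homoeolog can be exchanged where the sequences are near-identical, so the split between copies is uncertain, and its part in these values was not tested.

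On chromosomes 10 the matching runs were of 3 genes of 411 bases on each subgenome and rose together. Since these genes share one length, which copy pairs with which rests on their order alone. The block scored 12 from A10 and 10, the lowest score accepted, from D10, with 11 and 5 equal lengths among 23 IDs. On A10, Gohir.A10G051000 had an FPKM of 8.32, 14.1 and 9.78 at 50 mM, 72.3, 53.2 and 74.6 at 150 mM, and 84.8, 63.7 and 75.4 at 300 mM, and its D10 counterpart Gohir.D10G052700 had 10.8, 11.2 and 14.8 at 50 mM, 58.7, 48.7 and 70.2 at 150 mM, and 78.9, 55.0 and 58.5 at 300 mM. Gohir.A10G051100 had 13.5, 10.1 and 12.7 at 50 mM, 47.7, 43.1 and 59.6 at 150 mM, and 52.7, 42.4 and 40.8 at 300 mM, and Gohir.D10G052800 had 19.2, 17.2 and 27.2 at 50 mM, 74.3, 56.1 and 72.4 at 150 mM, and 85.3, 73.2 and 69.7 at 300 mM. The last pair was the most abundant. Gohir.A10G051200 had 33.2, 34.5 and 41.3 at 50 mM, 149, 117 and 152 at 150 mM, and 144, 119 and 117 at 300 mM, and Gohir.D10G052900 had 34.7, 38.0 and 36.5 at 50 mM, 147, 115 and 124 at 150 mM, and 107, 90.1 and 122 at 300 mM. All 6 genes were higher in each library at 150 and 300 mM than in any at 50 mM, and none differed between 300 and 150 mM past the threshold of the same fit. Against 50 mM the log2 change at 300 mM was 1.79 to 2.77 on A10 and 1.53 to 2.33 on D10, with limma adjusted p between 5.07e-05 and 0.000162.

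The matching runs on chromosomes 01 lay in reverse ID order to each other. Gohir.A01G155800, of 1071 bases, had 5.54, 5.30 and 4.005 at 50 mM, 20.9, 15.5 and 21.4 at 150 mM, and 15.03, 6.59 and 8.56 at 300 mM, and its counterpart Gohir.D01G154266 had 14.7, 16.0 and 14.8 at 50 mM, 30.3, 33.2 and 33.4 at 150 mM, and 27.5, 23.4 and 28.6 at 300 mM. The D copy was higher in each library of every group, and the A copy changed more, by 1.86 against 1.07 from 50 to 150 mM. Gohir.A01G156300, of 624 bases, had 2.57, 3.66 and 2.87 at 50 mM, 12.1, 7.78 and 15.3 at 150 mM, and 16.9, 12.9 and 5.78 at 300 mM, and Gohir.D01G154000 had 1.54, 1.87 and 2.78 at 50 mM, 8.14, 4.46 and 11.7 at 150 mM, and 11.6, 6.64 and 5.14 at 300 mM. Genes of these runs without a counterpart were Gohir.A01G156200 with 0.951, 1.02 and 0.872 at 50 mM, 2.77, 2.51 and 1.99 at 150 mM, and 3.42, 2.14 and 2.05 at 300 mM and Gohir.D01G154200 with 1.51, 1.06 and 1.31 at 50 mM, 5.07, 4.22 and 4.27 at 150 mM, and 4.31, 3.11 and 4.203 at 300 mM, of 2865 and 2157 bases. Gohir.A01G155701 rested on few reads, with 8, 2 and 0 at 50 mM and 8, 14 and 9 at 150 mM.

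On chromosomes 02 both runs fell, with the largest run mean of all on A02. Gohir.A02G033200 went from 944, 896 and 703 at 50 mM to 33.5, 110.2 and 13.3 at 150 mM and 23.02, 276 and 140.3 at 300 mM. Its neighbour on D02 in the same place, Gohir.D02G039700, had 242, 247 and 257 at 50 mM, 47.8, 40.3 and 17.6 at 150 mM, and 51.6, 238 and 94.7 at 300 mM, but the coding lengths of 543 and 546 bases differ and the pair is not counted as counterparts. Replicate 1 was the lowest of the 300 mM libraries in all 6 genes of the 2 runs, and on both chromosomes replicate 3 was the lowest at 150 mM in the first 2 genes. The counterparts Gohir.A02G033100 and Gohir.D02G039600 had 221, 355 and 204 and 19.98, 15.3 and 16.2 at 50 mM. At 150 mM they had 21.2, 43.6 and 4.995 and 1.64, 4.24 and 0.4995, and at 300 mM 6.47, 41.5 and 31.1 and 0.162, 2.23 and 0.972. At 300 against 50 mM the log2 changes were -3.59 (SE 0.79, limma adjusted p = 0.00781) and -3.66 (SE 0.58, limma adjusted p = 0.00161). The third pair, Gohir.A02G033300 and Gohir.D02G039800 of 513 bases, had smaller differences at 150 mM of -1.996 and -1.30.

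The matching runs on A04 and D05 held genes of 192 bases and fell on both. Here too the pairing of single copies rests on their order alone. The block scored 10, the lowest score accepted, from either side, with 6 equal lengths among 22 and 24 IDs. Gohir.A04G030300 had 88.5, 67.7 and 93.3 at 50 mM, 34.4, 42.6 and 25.2 at 150 mM, and 11.2, 14.4 and 21.9 at 300 mM, and its counterpart Gohir.D05G355800 had 23.4, 22.7 and 18.4 at 50 mM, 3.97, 6.53 and 1.61 at 150 mM, and 0.521, 0.533 and 1.57 at 300 mM. In both genes the level went on down at 300 mM, with log2 changes of -1.10 and -1.64 from 150 mM (limma adjusted p = 0.036 and 0.0485). The calls were lost without 6 and 7 of the 9 libraries in turn, among them replicates 1 and 2 at 150 and at 300 mM and replicates 1 and 3 at 50 mM for both and replicate 2 at 50 mM for the latter (adjusted p up to 0.116 and 0.16). Gohir.A04G030100 had 23.4, 21.8 and 27.4 at 50 mM, 5.29, 10.5 and 1.07 at 150 mM, and 0.260, 0 and 21.1 at 300 mM, and its counterpart Gohir.D05G356700 had 15.9, 10.5 and 13.0 at 50 mM, 1.85, 3.13 and 0.536 at 150 mM, and 0.260, 1.60 and 10.4 at 300 mM. In this pair replicate 3 at 300 mM stood far above the other libraries of its group on both chromosomes. Gohir.D05G356800 stayed low, with 9.74, 7.46 and 10.2 at 50 mM, 0.529, 1.14 and 1.07 at 150 mM, and 1.82, 1.33 and 1.57 at 300 mM. Gohir.A04G029916 had 1.91, 1.74 and 2.59 at 50 mM, 0.605, 0.812 and 0.306 at 150 mM, and 0, 0 and 0.596 at 300 mM and under 100 reads in all.

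**Figure D4:**
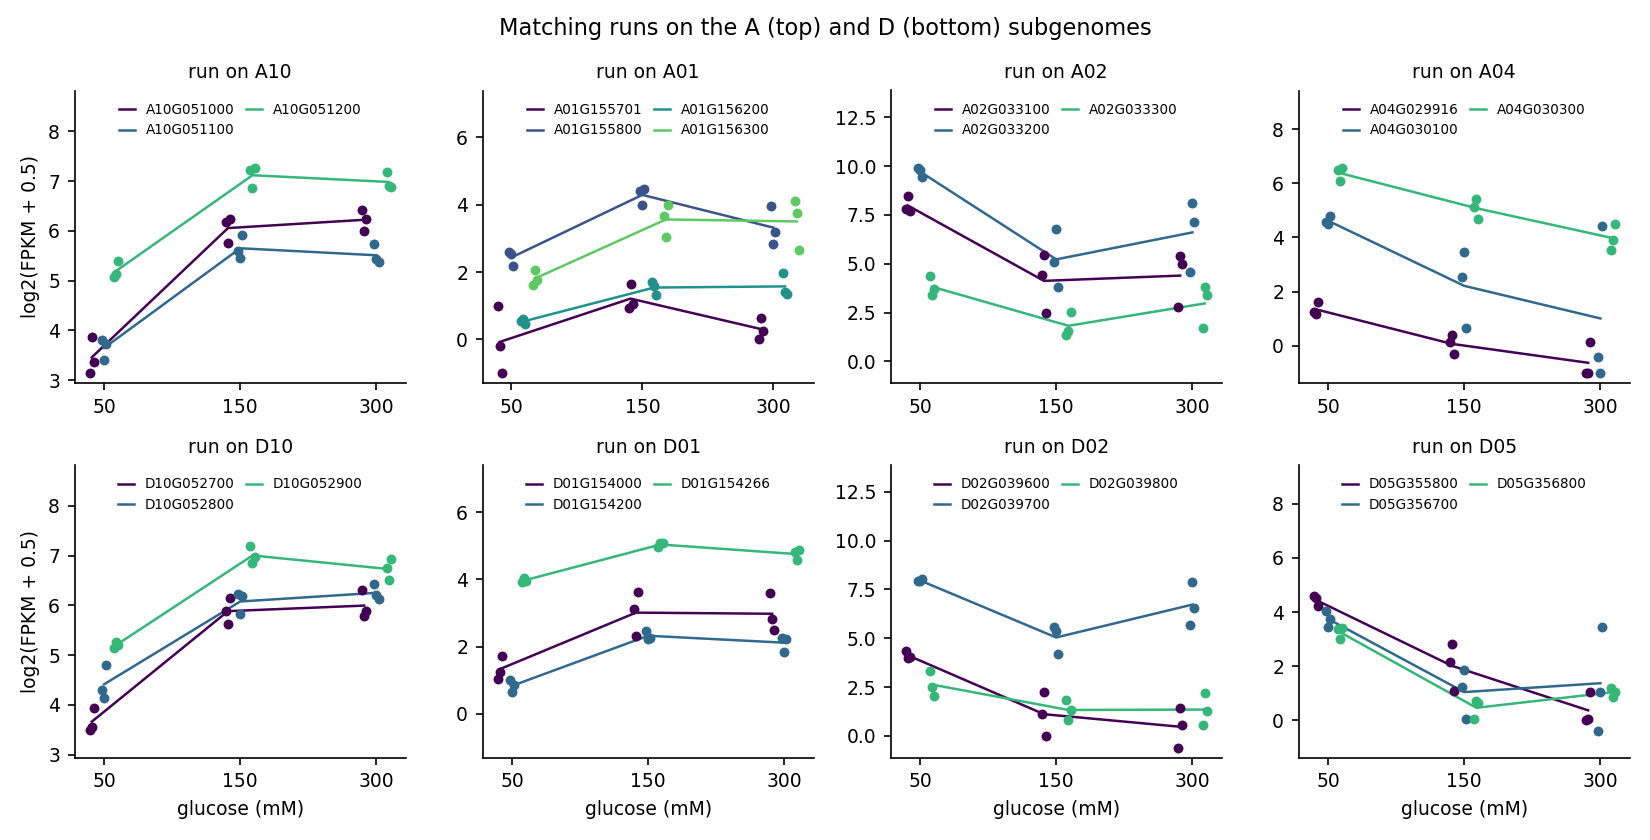
Levels of the genes in the 4 pairs of matching runs, with the A-subgenome run above the D-subgenome run, as log2(FPKM + 0.5) by glucose concentration. Points are libraries, shifted sideways by gene, lines join group means, and the vertical axis is shared within a pair. The runs on chromosomes 10 and 01 rise and those on 02 and on A04 with D05 fall on both subgenomes.

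Counterparts outside runs were not chosen by the rule. Of the 37 counterparts of rising-run genes 12 lay in runs and 25 did not. Of those 25, 22 were higher at 150 mM, 15 past the step and 19 past the limma threshold, with a median difference of 1.09. All 17 counterparts of falling-run genes outside runs were lower at 150 mM, 12 past the step and 10 past the limma threshold, with a median of -1.31. As shares, 60% of the 25 and 70.6% of the 17 were past the step and 76% and 58.8% past the threshold. For counterparts of changed genes outside runs, some of which may lie in runs, the shares past the step were 67.3% of 898 and 58.3% of 679, and those past the threshold 80.4% and 68.3%. The 25 and 17 leave out every counterpart in a run while the 898 and 679 do not, so these shares are not alike. With counterparts in runs included, 73.0% of 37 (rising) and 81.5% of 27 (falling) were past the step. Past the threshold were 83.8% and 66.7%. Those in runs were past the step by the rule, and the differences were not tested. Over all counterparts 7.59% were that much higher and 5.62% that much lower. At 300 mM the counterpart was past the step from 50 mM in 35 of 44 entries where the run gene was, and in 4 of 20 where it was not. These entries include counterparts in runs, and the 11 pairs with both genes in runs are entered from both sides. The rule chose both genes of those pairs on the 50 mM libraries. Of all kept genes 6.19% were that much higher and 8.07% that much lower at 300 than at 50 mM.

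Counterparts that moved in the opposite direction to the run gene were found in 3 blocks, named here after their values were seen. In each pair the lower copy rose and the higher one fell from 50 to 150 mM, so their mean levels came closer. The fall of Gohir.D03G087600 passed the threshold (limma adjusted p = 0.0115). Those of Gohir.A04G082900 and Gohir.A11G173900 did not (limma adjusted p = 0.0881 and 0.352). In the rising run of Gohir.A02G095600 all 4 genes had a counterpart on D03 in reverse order. Gohir.A02G095800 had an FPKM of 3.62, 2.83 and 2.76 at 50 mM, 27.0, 29.0 and 25.9 at 150 mM, and 27.5, 14.9 and 16.4 at 300 mM, while its counterpart Gohir.D03G087600 had 46.1, 83.4 and 60.02 at 50 mM, 31.5, 36.9 and 32.8 at 150 mM, and 31.5, 34.4 and 42.8 at 300 mM. The A copy stayed below the D copy in every library, and the gap was narrowest at 150 mM and in replicate 1 at 300 mM. The difference of the D copy between 150 and 50 mM was -0.86, and the other 3 counterparts had differences of 1.28, 0.81 and 0.98. In the run of Gohir.D04G121500, Gohir.D04G121700 had 7.60, 10.3 and 7.72 at 50 mM, 43.5, 30.5 and 31.97 at 150 mM, and 34.4, 19.5 and 25.8 at 300 mM, against 50.8, 46.0 and 33.9 at 50 mM, 30.2, 31.3 and 28.2 at 150 mM, and 40.5, 51.5 and 71.1 at 300 mM for Gohir.A04G082900, which was lower in each library at 150 than at 50 mM. In the run of Gohir.D11G180800, Gohir.D11G181000 had 0.706, 0.779 and 0.399 at 50 mM, 2.76, 0.961 and 2.95 at 150 mM, and 2.06, 1.13 and 0.441 at 300 mM, against 2.83, 3.66 and 3.51 at 50 mM, 1.79, 2.08 and 3.78 at 150 mM, and 1.69, 3.60 and 2.35 at 300 mM for Gohir.A11G173900. The neighbours of those genes in both runs had counterparts that rose past the step.

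**Figure D5:**
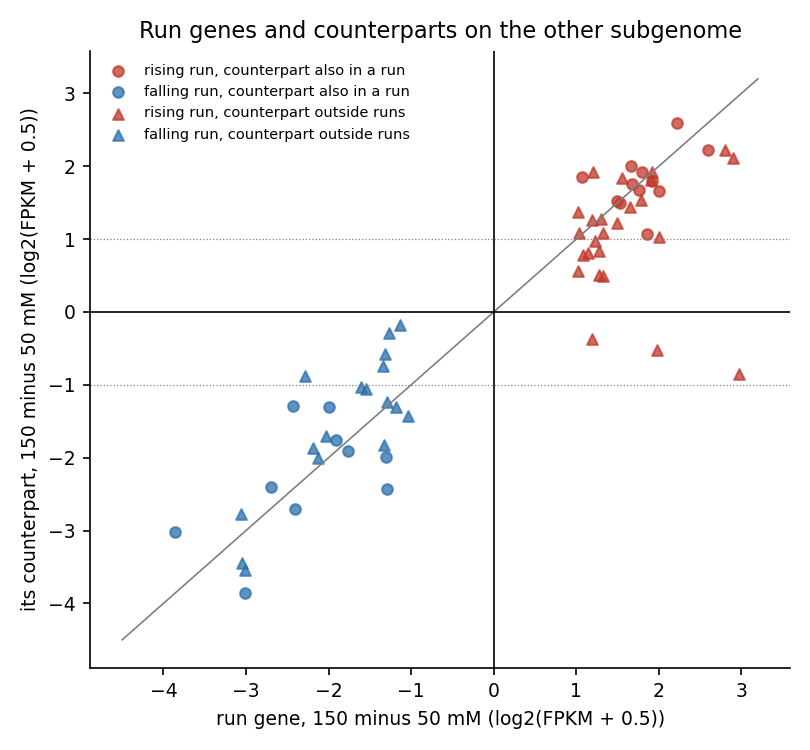
Difference between 150 and 50 mM of each run gene (horizontal) and of its counterpart on the other subgenome (vertical), both in log2(FPKM + 0.5). Circles mark counterparts that also lie in a run and triangles those outside runs, red for rising and blue for falling runs, the grey diagonal marks equal differences and the dotted lines the step of the rule. Of 64 points, 3 lie on the opposite side of 0, all from rising runs. The points hold 53 different pairs. The 11 pairs with both genes in runs are shown from both sides and are past the step by the rule.

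A further pair of falling runs shared a single counterpart. Gohir.A10G019700 and Gohir.D10G020500, of 903 bases, closed the runs of Gohir.A10G019400 and Gohir.D10G020250. The A copy had 24.6, 13.6 and 15.7 at 50 mM, 5.52, 5.62 and 3.48 at 150 mM, and 6.53, 20.3 and 10.98 at 300 mM, and the D copy had 29.7, 17.9 and 17.0 at 50 mM, 6.08, 6.46 and 3.48 at 150 mM, and 8.80, 27.5 and 17.9 at 300 mM. In both genes replicate 2 at 300 mM lay within the range of the 50 mM libraries, and replicate 1 was the lowest of its group.

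The remaining 72 runs with 222 genes, those not named by the rule on size, length, return or match, covered the following ranges. In the 38 rising ones the run mean of the difference between 150 and 50 mM was 1.08 to 1.995 (median 1.496), and that between 300 and 50 mM 0.10 to 2.12. In the 34 falling ones the ranges were -2.71 to -1.15 (median -1.62) and -2.76 to -0.72. From 50 to 300 mM 81 of their 118 rising genes were called higher and 80 of their 104 falling genes lower, against 16.0% and 16.3% of all genes. From 150 to 300 mM 16 rising genes were called lower and 7 falling genes higher, against 4.80% and 1.31% of all genes. Both contrasts share libraries with the rule, so part of any excess over all genes follows from the choice of genes. Such calls are not given here for changed genes outside runs.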

How the data were processed

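The authors deposited FPKM values for 80970 genes in each of 9 libraries. Reads were aligned with HISAT2 and counted with featureCounts 1.5.0-p3, per the submitters' processing notes. Not given in the sources used here are how reads shared between copies were handled, the strand setting and the build. None of the IDs matched the supplied table of 99454 cotton genes (0 matches).

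Values of a gene are whole multiples of what 1 read is worth in each library, which gave whole reads and gene lengths for all 68279 rows above 0, within a tolerance of 0.001 (lengths under 60000 bases were tried). Lengths are used only for genes with at least 100 reads, and 95.5% of those on chromosomes are multiples of 3, so they are called coding lengths. No molecular identifiers are given, so read numbers cover counting error only.

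Log2(FPKM + 0.5) of the 50988 genes that reached an FPKM of 1 in 3 or more libraries was fitted with limma 3.58.1 under R 4.3.3, using its trend and robust options (statmod 1.5.0). All 9 libraries entered, with glucose as the only term. Tests were two-sided, with Benjamini-Hochberg adjustment over all genes. A fold change on this scale understates that of low genes. The fit, the recovery and the block search were tested on simulated data.

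The members, the rule and the settings were chosen with earlier results of these data known. Runs are named if they are among the 6 longest (ties, here 10 runs of 4 genes of which 3 are named, went to the larger mean difference between 150 and 50 mM), the 4 of each direction with the largest mean difference between 150 and 50 mM, the 3 of each direction with the largest mean difference between 300 and 150 mM, or have a matching run. Other runs named in the text were chosen after their values were seen. Alternatives were other pseudocounts, scalings, filters, fold steps and window sizes, a replicate block, voom on recovered reads, and leaving out each library.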

Additional observations from a re-analysis of the deposited data

How the results depend on the processing

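The number of runs follows the settings of the rule, since each run needs 3 adjacent genes past a fixed step. Rising runs and their genes numbered 82 and 262 with a pseudocount of 0.1, and 26 and 82 with a pseudocount of 1. An FPKM of at least 5 gave 31 rising runs (96 genes) and 25 falling runs (76 genes), and no filter gave 30 falling runs (91 genes). A step of 1.5-fold gave 263 rising (857 genes) and 198 falling (654 genes), and one of 3-fold gave 9 (27 genes) and 10 (30 genes). With members adjacent among all IDs there were 25 rising (76 genes) and 21 falling (63 genes). The 3 scalings kept both counts within 1.5 times. Leaving out 1 library gave 46 to 57 rising runs (150 to 177 genes) and 33 to 64 falling runs (105 to 206 genes). Of falling-run genes, 69.9%, 69.2% and 71.9% remained without replicate 1, 2 or 3 at 50 mM.

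For 300 against 150 mM, 25 rising-run genes were called lower in the report, 16 with no filter and 15 with only the groups compared, and 9 to 40 with 1 library left out. Rising-run genes called higher were 2, against 1 with a pseudocount of 0.1, 4 with voom, and 0 to 3 with 1 library left out. Falling-run genes called higher were 9, against 4 with no filter, 2 with only the groups compared, and 1 to 28 with 1 library left out. Falling-run genes called lower were 6, against 3 with no filter, 3 with voom, 2 with only the groups compared, and 1 to 5 with 1 library left out. For 300 against 50 mM the calls stayed within 1.5 times of 106 and 105, with 91 to 112 and 77 to 112 when 1 library was left out. Of 14 named genes called for 300 against 150 mM, 10 lost the call under at least 1 alternative, and 17 gained one.

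Replicate numbers did not pair the libraries: the correlation of deviations between same-numbered libraries was -0.291 to 0.106. With the replicate block the counts for 300 against 150 mM were 17 and 1 (rising runs, lower and higher) and 4 and 3 (falling runs, higher and lower), and for 300 against 50 mM 107 and 101. Windows of 20 IDs on each side found a counterpart block for 74 runs against 48, and lengths within 10% gave the same 48. No called change of a named gene changed sign under an alternative. The balance of counts did: rising runs were fewer than falling runs with a pseudocount of 1 (26 against 36), a step of 3-fold (9 against 10), median-ratio scaling (47 against 49) and without replicate 2 at 150 mM (49 against 64). Falling-run genes called higher at 300 than at 150 mM were fewer than those called lower without replicate 3 at 150 mM (2 against 4) or replicate 2 (1 against 2) or 3 (2 against 5) at 300 mM, and equal in number without replicate 3 at 50 mM or replicate 1 at 150 mM and with only the groups compared. Depth limits the low members: 22 of 305 rested on under 100 reads over 9 libraries. The runs read with a replicate set aside, and the 300 mM shares, medians and run tallies without 1 library, were added after the data were seen.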
